A study of Homo sapiens with 8 samples.

Results

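HEXIM1, HEXIM2 and RN7SK were examined for called peaks of the tumour suppressor p53 in the 293T line, derived from human embryonic kidney. The members were 29 peaks out of 97582 in the 4 deposited peak lists. They were chosen by position, as peaks sharing at least 1 bp with a window of 44 kb on chromosome 17 (43214000 to 43258000, hg19) around HEXIM1 and HEXIM2 or with a window of 20 kb on chromosome 6 (52850000 to 52870000) around RN7SK. These windows were themselves picked with peak positions and enrichments of the same libraries known, so presence and height of the peaks are given as descriptions, without tests. The Dox lists held 9 and 7 of the 29 peaks (replicates 1 and 2) and the PBS lists 4 and 9.

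The groups were Dox, 293T cells given doxorubicin, a DNA-damaging agent, at 0.5 µg/ml, and PBS, cells given 20 µL of phosphate-buffered saline as vehicle, both for 24 h before p53 was precipitated and its DNA sequenced (ChIP-seq). Each group had 2 ChIP libraries, replicate 1 from passage 3 and replicate 2 from passage 5, named Dox 1, Dox 2, PBS 1 and PBS 2 below. 293T cells in both groups carry the simian virus large T antigen, which binds p53, a property that limits them as a model of p53 activation. The 4 input samples were not analysed here.

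List length varied within each condition, from 46658 peaks in Dox 1 to 16642 in Dox 2, and from 11304 in PBS 1 to 22978 in PBS 2. The peaks were called at a loose threshold of p under 0.05, and read depth is unknown. A q of at most 0.05 was reached by 3.65% (Dox 1) and 4.84% (Dox 2) of the peaks, and by 2.56% (PBS 1) and 5.84% (PBS 2). The fold enrichment of a peak is the authors' ratio of its summit to the local background in that library and each list has its own scale. Folds of the Dox and PBS libraries are therefore set side by side as values, and no difference or ratio between the conditions was taken from them.

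The 3 genes encode parts of 1 regulatory complex. RNA polymerase II pauses shortly after it starts a gene, and P-TEFb, a kinase made of CDK9 and a cyclin T, releases it. RN7SK encodes 7SK, a small nuclear RNA made by RNA polymerase III, which holds P-TEFb in an inactive complex. HEXIM1 and its paralog HEXIM2 are the proteins that, once bound to 7SK, inhibit the kinase. HEXIM1 protein has also been reported to bind p53. In the RefSeq gene table HEXIM1 and HEXIM2 are neighbours, with the antisense gene HEXIM2-AS1 overlapping both, and RN7SK lies between GSTA4 and CILK1.

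RefSeq promoter sequences were available for HEXIM1, with 1 entry, and HEXIM2, with 2 entries for its alternative starts. They are shown because peaks, weak or strong, were called near both genes. Each line gives the 250 bases before an annotated start on build GRCh38.p14, plus strand. These positions cannot be set beside the hg19 positions of the peaks, so which peak covers which sequence was not determined. Capitals mark the letters TATAAA, the core of a TATA box, searched on both strands.
HEXIM1 chr17:45148225-45148474: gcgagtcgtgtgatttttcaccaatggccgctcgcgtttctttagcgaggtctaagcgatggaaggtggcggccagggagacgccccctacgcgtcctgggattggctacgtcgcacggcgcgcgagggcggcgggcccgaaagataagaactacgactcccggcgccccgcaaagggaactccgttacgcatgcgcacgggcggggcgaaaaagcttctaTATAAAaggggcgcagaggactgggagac
HEXIM2 first entry chr17:45159924-45160173: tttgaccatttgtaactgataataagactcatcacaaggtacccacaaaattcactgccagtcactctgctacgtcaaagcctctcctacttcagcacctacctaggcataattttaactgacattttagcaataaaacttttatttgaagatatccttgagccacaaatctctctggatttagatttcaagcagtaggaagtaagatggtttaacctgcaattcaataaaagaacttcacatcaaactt
HEXIM2 second entry chr17:45161625-45161874: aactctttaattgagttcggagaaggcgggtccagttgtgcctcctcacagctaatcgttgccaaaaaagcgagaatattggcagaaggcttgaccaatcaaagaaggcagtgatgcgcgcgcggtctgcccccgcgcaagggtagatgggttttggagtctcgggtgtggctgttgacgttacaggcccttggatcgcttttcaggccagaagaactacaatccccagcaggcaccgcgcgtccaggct

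The HEXIM1 promoter held TATAAA 29 bases before its start, whereas neither HEXIM2 entry held it. Of all 35116 promoter entries cut to the same length, 10.7% held TATAAA on either strand. The exact p53 decamer, the unit that is repeated in a p53 response element, is its own reverse complement, so 1 search covers both strands. It was found in 0 of the 3 entries, and 5.57% of all entries held it. With 1 mismatch allowed outside the core, the second HEXIM2 entry held 1 match and the other entries none, against 28.0% of all entries with at least 1 match. The sequences also differed in base composition, with 62.4% G and C in the HEXIM1 entry and 36% and 55.2% in the HEXIM2 entries, around a median of 58% over all entries. No match in these stretches says only that these letters are absent from them.

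HEXIM1 held the strongest peak of both windows in every library. Its fold enrichment was 20.1 and 22.3 in Dox 1 and Dox 2, and 14.4 and 20.2 in PBS 1 and PBS 2. As deposited, the value of PBS 1 was the lowest and the other 3 lay close together. The median fold of a list was 2.47 and 2.78 in the Dox libraries and 2.64 and 2.85 in the PBS libraries. By fold, the peak had rank 5 of 46658 and rank 2 of 16642 in the Dox lists, and rank 4 of 11304 and rank 8 of 22978 in the PBS lists. By p its ranks were 4 and 2 in the Dox lists and 5 and 10 in the PBS lists. Its −log10 p was 64.0 and 66.7 in the Dox libraries, against 33.5 and 57.1 in the PBS libraries. It reached a q of at most 0.05 in each library, with −log10 q of 56.9 and 59.2 in the Dox libraries and 26.7 and 50.7 in the PBS libraries.

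**Figure D1:**
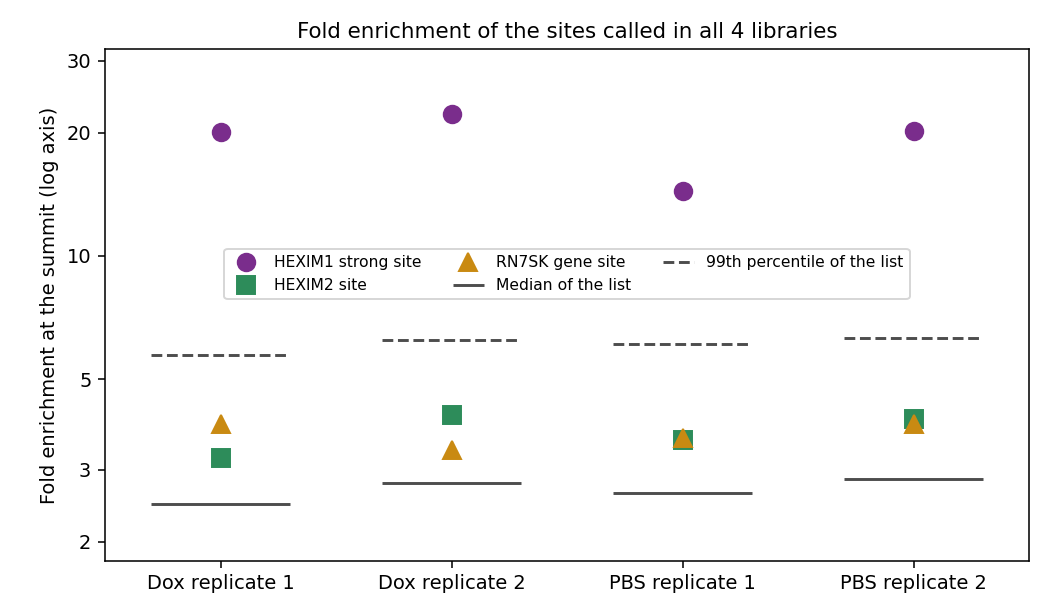
Fold enrichment at the summit (log axis) of the 3 sites called in every library, 1 point per site and library, with the highest peak taken where a library had several. Solid and dashed lines mark the median and the percentile 99 of each list; the HEXIM1 site stands far above the dashed line in all 4 libraries, while HEXIM2 and RN7SK lie between the lines.

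The strong HEXIM1 site spanned 43225665 to 43227581 on chromosome 17 after overlapping peaks of the 4 lists were merged, a length of 1917 bases. It began 981 bases and ended 2897 bases after the hg19 HEXIM1 start that placed the window, 43224684. That start is approximate and may belong to an older transcript model, since RefSeq starts on GRCh38.p14 were not placed on hg19. The HEXIM1 and HEXIM2 starts used here lay 13383 bases apart on hg19, and the RefSeq HEXIM1 start lay 11699 and 13400 bases from the 2 HEXIM2 starts on GRCh38.p14. Which HEXIM2 start the hg19 position stands for is unknown. The near match of 13383 and 13400 bases thus does not show that the HEXIM1 starts are the same. Whether the strong peak lies inside HEXIM1 or at a start of it was therefore not determined, and distances are from the hg19 position alone. The summits lay at 43225999 and 43226001 in the Dox libraries and at 43225987 and 43225989 in the PBS libraries. All 4 summits thus fell within 14 bases, with those of the Dox pair 12 bases further from the start on average. Over the 3840 sites found in every library the median spread of the 4 summits was 209 bases, and 1.20% of these sites had a spread of 14 bases or less. Among the 100 of them with the highest minimum fold, the median spread was 50.5 bases and 5 sites, this one included, reached 14 bases or less. The Dox and PBS summits did not overlap at this site, nor at HEXIM2 or RN7SK, and the same held for 32.3% of the sites found in every library. At HEXIM2 and RN7SK the order was the reverse of that at HEXIM1.

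The called edges of the main peak lay close together among the libraries on the side of the HEXIM1 start and far apart on the other side. The left edge of its main peak lay at 43225685 and 43225665 in the Dox libraries and at 43225680 and 43225672 in the PBS libraries, a range of 20 bases. The right edge lay at 43227412 and 43227019 in the Dox libraries and at 43226405 and 43226968 in the PBS libraries, a range of 1007 bases. This range depends on where a library's call was split into several peaks. With all peaks of the site, the last right edge was 43227412 and 43227581 in the Dox libraries. In the PBS libraries it was 43226887 and 43227416, and the range over the libraries was 694 bases, with PBS 1 ending first. Over the 3840 sites found in every library the median ranges were 277 bases on the left and 268 on the right, and over the 100 with the highest minimum fold 170 and 168 bases. Of those 100 sites, 4 had a left range of at most 20 bases and 6 a right range of at least 1007 bases, this one included. The summit stood 314 and 336 bases from the left edge in the Dox libraries and 307 and 317 bases from it in the PBS libraries. A stretch of 721 bases, from 43225685 to 43226405, was covered in each library.

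Further from the start the same site carried weak second peaks in 3 libraries. Dox 2 had one of 3.76-fold with its summit 2603 bases after the start, PBS 2 one of 3.10-fold at 2580 bases, and PBS 1 one of 2.36-fold at 2067 bases. In Dox 1 a single peak of 1728 bases ran across this stretch instead. Called peaks covered 1728 and 1803 bases of the site in the Dox libraries, and 914 and 1578 bases in the PBS libraries. PBS 1, whose coverage was the smallest, also had the shortest list. Whether coverage and list length are related was not tested.

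**Figure D2:**
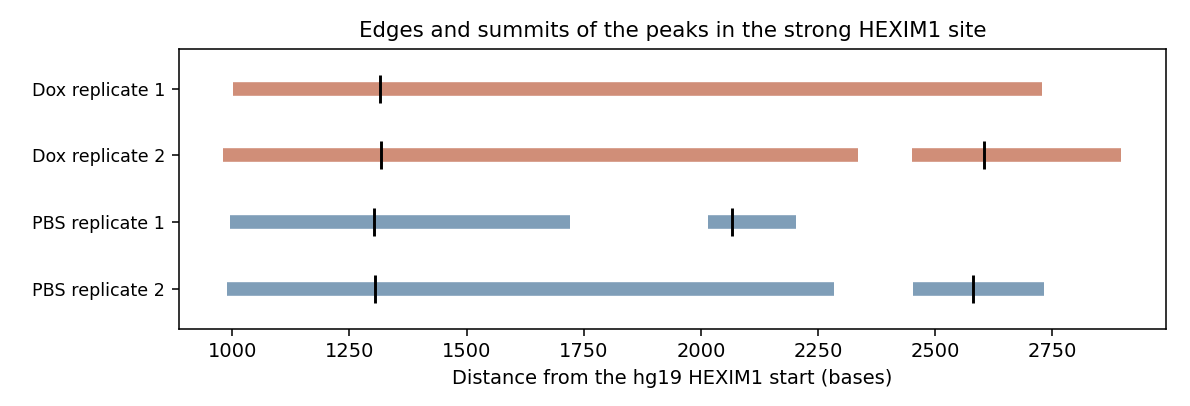
Peaks of the strong HEXIM1 site as bars, 1 row per library, with ticks at the summits, by distance in bases from the hg19 HEXIM1 start. The left edges fall within 20 bases of each other, while the right edges of the main peaks range over 1007 bases.

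The authors matched the peaks of the 2 replicates of a condition and gave each pair an irreproducible discovery rate (IDR), which is low where both replicates rank a peak alike and high up. For the strong HEXIM1 peak the IDR was 7.1e-07 for Dox and 1.2e-05 for PBS in the authors' deposited tables. The pair had rank 7 of 8784 Dox pairs and rank 18 of 6244 PBS pairs. The −log10 p of the deposited pairs was 64.0 and 35.4 for Dox 1 and Dox 2, and 17.6 and 57.1 for PBS 1 and PBS 2. In Dox 2 and PBS 1 these equal the mean over the main and the weak second peak, so the pair value there understates the main peak.

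Weak peaks were called around the hg19 position used as the HEXIM1 start, which need not be the promoter in use. A site from 43224235 to 43224836, which spans that position, had a peak of 2.69-fold and 3.27-fold in Dox 1 and Dox 2 and of 2.67-fold in PBS 2, and none in PBS 1. It was the only site of the windows found in 3 libraries, a pattern of 7.47% of the 63890 merged sites of the genome. The summits lay at 61 and -52 bases from the start in the Dox libraries and at -4 bases in PBS 2. Its Dox pair had an IDR of 0.187. A further site between the start and the strong peak, from 43224989 to 43225505, was called in Dox 2 at 2.38-fold and in PBS 2 at 2.51-fold. Neither site reached a q of at most 0.05 in any library.

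The other peaks nearer to the HEXIM1 start than to the HEXIM2 start were each called in 1 library. Other genes were not placed on hg19, so whether these peaks lie in another gene was not determined. Dox 1, the longest list, alone had 4 peaks upstream, with summits at -8249 to -2201 bases from the start and 1.87-fold to 2.62-fold enrichment. PBS 2 alone had 2 peaks after the strong site, of 2.18-fold at 3427 bases and of 4.45-fold at 5086 bases from the start. Sites of a single library made up 6 of 12 sites in the windows and 72.5% of all merged sites. Those of Dox 1 alone were 48.5% and those of PBS 2 alone 13.3% of all merged sites.

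HEXIM2 had a weak site in every library, from 43238060 to 43239158, which reached from -7 to 1091 bases around its hg19 start of 43238067. Its highest peak was 3.21-fold and 4.09-fold in Dox 1 and Dox 2, and 3.54-fold and 3.99-fold in PBS 1 and PBS 2. The summit of that peak lay 807 and 809 bases after the start in the Dox libraries and 910 and 934 bases after it in the PBS libraries. PBS 2 had a further peak of 3.08-fold with its summit at 306 bases. No HEXIM2 peak reached a q of at most 0.05, the highest −log10 q being 0.749 in Dox 2. In the authors' deposited tables the IDR was 0.273 for the Dox pair and 0.264 for the PBS pair.

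HEXIM1 and HEXIM2 differed widely in enrichment within each list, although the genes lie side by side. Ranked by fold among the 3840 sites found in every library, the HEXIM1 site had rank 5 and 2 in the Dox libraries and 4 and 8 in the PBS libraries. The HEXIM2 site had rank 2530 and 723 in the Dox libraries and 980 and 1292 in the PBS libraries. Between the genes, 8113 bases from 43229947 to 43238059 held no peak in any library, and none was called in the last 18842 bases of the window. In the first part of the window the gaps between sites were at most 3503 bases.

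**Figure D3:**
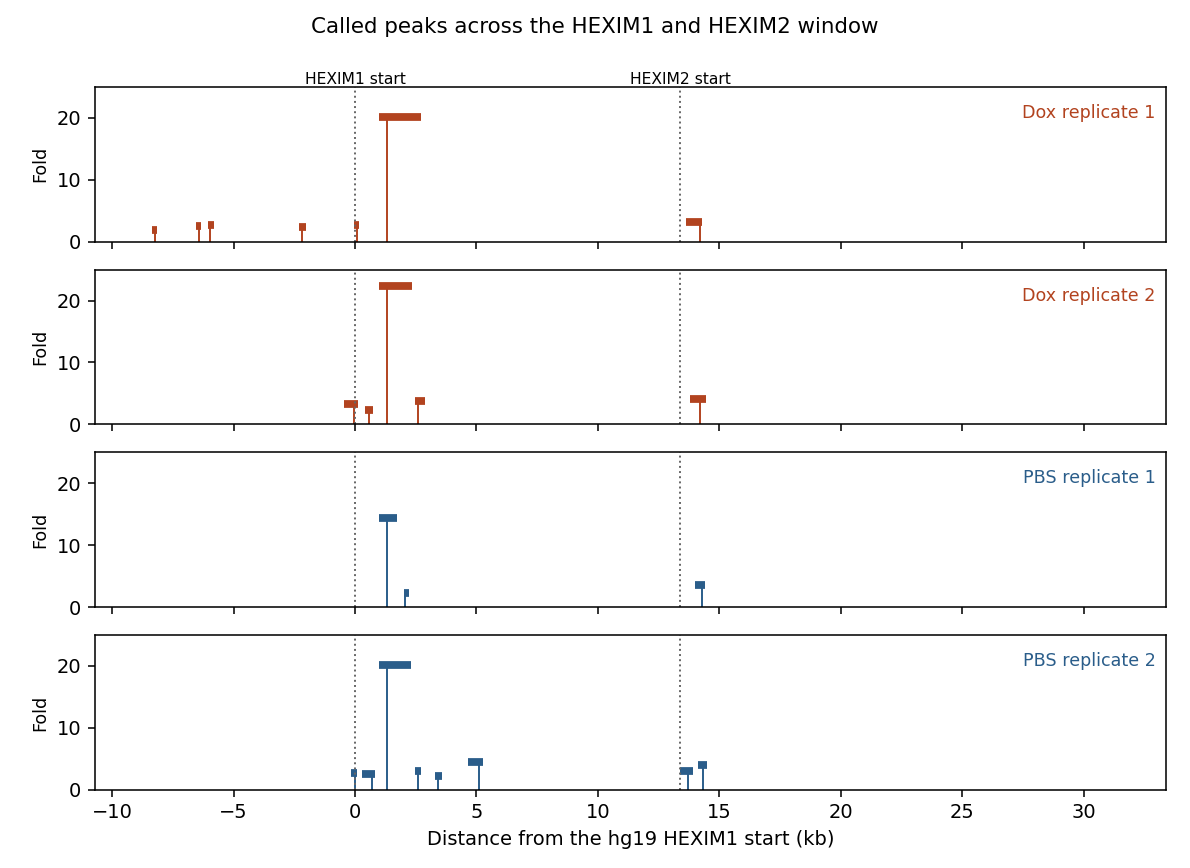
Called peaks across the 44 kb window in the 4 libraries, by distance in kb from the hg19 HEXIM1 start. Horizontal bars span each peak at the height of its fold enrichment and thin lines mark its summit; a peak of 14.4-fold to 22.3-fold after the HEXIM1 start recurs in each library, and the peaks at HEXIM2 stay at or under 4.09-fold.

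RN7SK had 2 weak sites, of which the one at the gene was found in every library. The human genome holds many near-copies of 7SK, and how reads with several matches were placed is not stated, so values at this gene are uncertain. The gene site spanned 52860327 to 52860895 on chromosome 6, from -91 to 477 bases around the hg19 start of 52860418. Its fold enrichment was 3.89 and 3.35 in Dox 1 and Dox 2 and 3.59 and 3.87 in PBS 1 and PBS 2. The summits lay 176 and 207 bases after the start in the Dox libraries and 218 and 334 bases after it in the PBS libraries. In PBS 1 the peak began 108 bases after the start and in the other libraries before it. The −log10 p was 5.08 and 4.26 in the Dox libraries and 4.53 and 5.58 in the PBS libraries. The −log10 q was 1.12 and 0.215 in the Dox libraries and 0.188 and 1.45 in the PBS libraries, so that a q of at most 0.05 was reached in PBS 2 alone.

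The replicate pairs of the RN7SK gene site had low IDR values in the authors' deposited tables. The IDR was 0.0040 for Dox and 0.044 for PBS, both under 0.05. Of the 5 Dox pairs in the windows 2 had an IDR of at most 0.05, against 27.5% of all Dox pairs, and of the 3 PBS pairs 2, against 15% of all PBS pairs. These were the strong HEXIM1 site and the RN7SK gene site in both conditions. Among the 3840 sites found in every library, the RN7SK gene site had rank 1655 and 1675 by fold in the Dox libraries and 956 and 1430 in the PBS libraries.

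The other site of the RN7SK window lay before the RN7SK start, from 52859801 to 52860105. It had peaks called in Dox 1 and Dox 2 but in no PBS library. Distances were taken to the RN7SK start alone and no annotation on hg19 was used. Whether this site lies in a neighbouring gene such as GSTA4 was therefore not determined. Its fold enrichment was 3.25 in Dox 1 and 2.41 in Dox 2, with summits at -482 and -517 bases from the start. The peak in Dox 2 was lower than the median of its list, 2.78. The IDR of the pair was 0.115 and −log10 q was 0 in both Dox libraries. This was the 1 site of 12 with that pattern, and 3.11% of all merged sites had it. The reverse pattern, with peaks in the PBS libraries alone, was found at none of the 12 sites and at 0.928% of all merged sites. With the 11304 peaks of smallest p from each list, Dox 1 alone kept a peak there. The Dox 2 peak had rank 11316 by p in its list and fell just outside that cut.

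**Figure D4:**
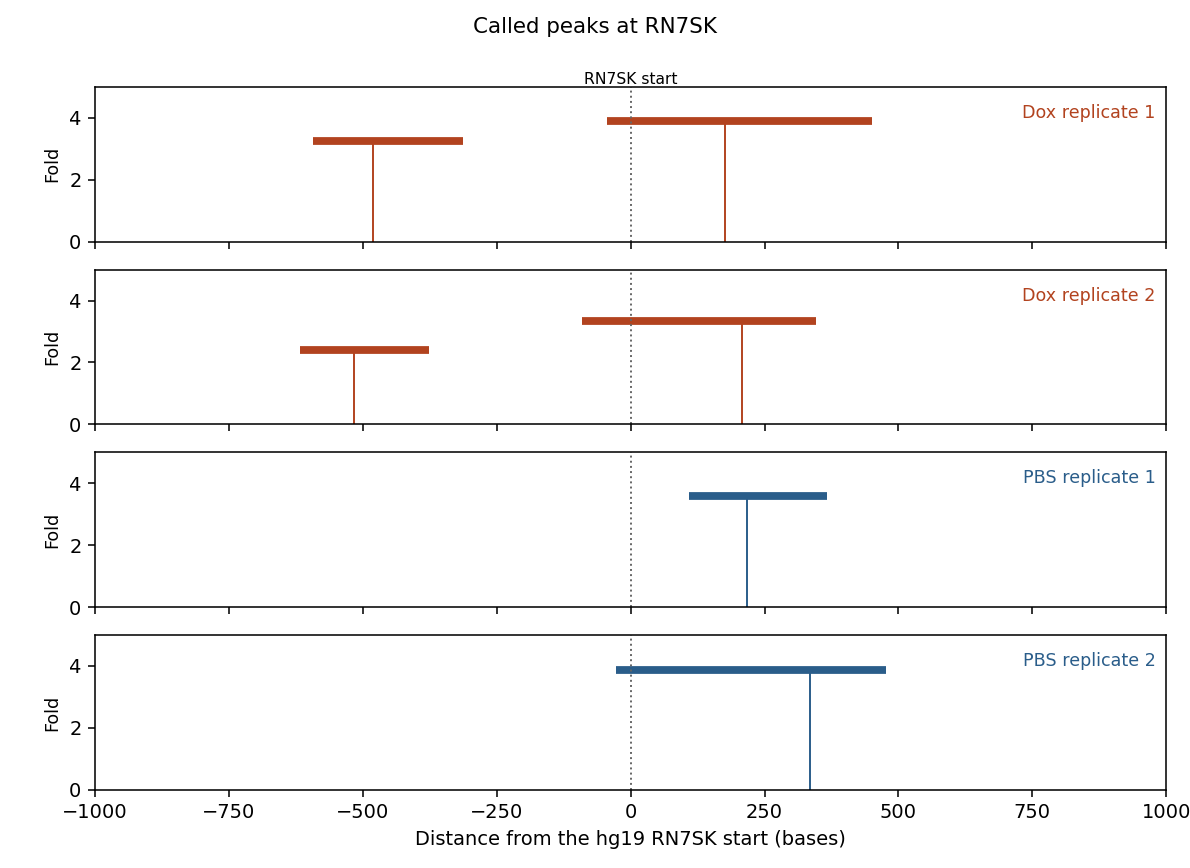
Called peaks around the hg19 RN7SK start in the 4 libraries, by distance in bases. Horizontal bars span each peak at the height of its fold enrichment and thin lines mark the summits; the peak before the gene appears in the Dox libraries alone, at 3.25-fold and 2.41-fold.

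In total the windows held 12 merged sites, 3 of them with a peak in all 4 libraries, against 6.01% of the merged sites of the genome. Since the windows were chosen with these peaks known, nothing is read from the difference. Member peaks with a q of at most 0.05 numbered 1 of 9 and 1 of 7 in Dox 1 and Dox 2, and 1 of 4 and 2 of 9 in PBS 1 and PBS 2. Over the whole lists the shares were 3.65% and 4.84% (Dox 1, Dox 2) and 2.56% and 5.84% (PBS 1, PBS 2). The strong HEXIM1 peak was among them in each library, and PBS 2 added the RN7SK gene peak. Nothing is read from these counts either. The windows were flanked by sites not counted here. On chromosome 17 the nearest lay from 43212431 to 43213261 and from 43274845 to 43275847, both found in every library at 1.78-fold to 4.65-fold. On chromosome 6 the nearest were a peak of Dox 1 at 52746798 to 52747490, with 2.19-fold, and a site of both PBS libraries at 52930265 to 52930866, with 2.36-fold and 2.34-fold.

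The number of peaks did not separate the conditions in the HEXIM1 and HEXIM2 window. It was 7 and 5 in Dox 1 and Dox 2 and 3 and 8 in PBS 1 and PBS 2, a mean of 6 ± 1.41 against 5.5 ± 3.54 (SD, n = 2 each). The difference of 0.5 peaks was smaller than the spread between the PBS replicates. Dox 1 had 4 more peaks than PBS 1, both from passage 3, and the difference between Dox 2 and PBS 2, both from passage 5, was -3. With the 11304 peaks of smallest p from each list, the window held 2 and 5 peaks in Dox 1 and Dox 2 and 3 and 5 in PBS 1 and PBS 2. The differences were then -1 at passage 3 and 0 at passage 5. In the RN7SK window there were 2 peaks in each Dox library and 1 in each PBS library. At equal list length it held 2 and 1 peaks in Dox 1 and Dox 2 and 1 in each PBS library. With a q of at most 0.05 it held 0 peaks in each Dox library, 0 in PBS 1 and 1 in PBS 2. The share of other stretches of 20 kb with the full-list pattern was not computed, so nothing is read from it. Per 44 kb, the average over stretches laid end to end along the chromosomes was 0.696 and 0.249 summits in the Dox libraries and 0.171 and 0.343 in the PBS libraries. The share of such stretches with at least as many summits as the HEXIM window was 1.76% and 0.638% in the Dox libraries. In the PBS libraries it was 1.23% and 0.261%. The window was picked with its peaks known, so these shares do not measure chance and nothing is read from them.

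By its ranks over the 4 libraries, the strong HEXIM1 site was most like 5 other sites found in every library, named by position. Likeness was measured as the sum of the 4 absolute differences in rank by fold. The nearest lay on chromosome 11 from 65190010 to 65191612, with a summed difference of 9 and folds of 26.4 (Dox 1), 22.4 (Dox 2), 14.9 (PBS 1) and 17.9 (PBS 2). Next was chromosome 1 from 181103616 to 181104631, with a summed difference of 13. The others lay on chromosome 1 (148603540 to 148605108), chromosome 12 (120728497 to 120731197) and chromosome 21 (34739306 to 34740256), with summed differences of 33, 33 and 36. The chromosome 12 site had folds of 20.5 and 14.8 in the Dox libraries and of 10.1 and 22.3 in the PBS libraries.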

How the data were processed

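p53 ChIP-seq peaks of 293T cells were read from 1 list per ChIP library and 1 table of replicate pairs per condition. BWA, MACS2 and build hg19 are named in the submitters' processing notes. Their versions, and any filters, were not given in the sources used here. A threshold of p under 0.05 is part of the deposited peak names. The deposited lists give each peak's fold enrichment and its p-value and q-value as −log10. Per the file headers, the pair tables hold −log10 p of both peaks, and local and global IDR as a fraction. Passage and replicate number cannot be told apart. Nothing says whether the libraries of a condition came from separate cultures, so spreads may be technical.

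The members and lists were chosen with earlier results of these data known. Peaks of the 4 lists that shared 1 bp or more were merged into sites, and ranks were taken within each list. The merging code was run on simulated sites set far apart, with at most 1 peak per library. That run did not cover split or chained peaks, such as those of the strong HEXIM1 site. Starts are given 1-based and summits as deposited. No test was made. The TATAAA search, the stretches of 44 kb and the 100 strongest shared sites were added after the data were seen. Described were the 3 genes, every peak in their windows and the 5 sites nearest in rank. Gene names and promoters came from RefSeq on GRCh38.p14, where each of the 3 genes matched by symbol in the gene table and 2 had promoter entries. Other genes of 7SK and P-TEFb control were not analysed here, since no annotation on hg19 was used. Read heights are not reported, since 2 to 7 whole heights solved the assumed formulas for each member peak. The tools were numpy 2.4.6, scipy 1.17.1, pandas 2.3.3 and, for figures, matplotlib 3.10.9, run in Python 3.11.15. Alternatives were summit position, q of at most 0.05, equal list lengths, windows widened by 10 kb, summits within 200 bp, ranking by p, an IDR limit and each library left out.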

Additional observations from a re-analysis of the deposited data

Results flagged for a closer look

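In the full lists, the number of peaks in the HEXIM1 and HEXIM2 window differed in opposite directions in the 2 passages. Dox minus PBS was 4 peaks at passage 3 and -3 peaks at passage 5. Each value rests on 1 library per condition, and the difference between the passages was not tested. The lists of passage 3 were the longest and the shortest of the 4, with 46658 peaks for Dox and 11304 for PBS. With the 11304 peaks of smallest p from each list, Dox minus PBS was -1 at passage 3 and 0 at passage 5, so the opposite directions were seen in the full lists and not at equal length.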

How the results depend on the processing

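Of 49 values recomputed under alternatives for 17 results, 26 stayed within the replicate spread, or for counts within 1.5 times, and 23 moved. These labels do not measure size or sign. The percentile of the strong HEXIM1 peak in Dox 1 counted as moved from 99.9904 by fold to 99.9925 by p. The HEXIM window difference of 0.5 peaks counted as within the spread at -2. The cause was not tested unless the alternative itself shows it. For peak number in the HEXIM1 and HEXIM2 window, Dox minus PBS ranged from -2 to 3 with 1 library left out, being -2 without PBS replicate 1, 3 without PBS replicate 2, -0.5 without Dox replicate 1 and 1.5 without Dox replicate 2, so its sign rests on single libraries. It was -0.5 with equal list lengths (-1 at passage 3 and 0 at passage 5), 2.5 with the window widened by 10 kb and 0 with q of at most 0.05. For RN7SK the difference was 1 with any library left out, -0.5 with q of at most 0.05 and 0.5 with equal list lengths. The 12 sites became 15 when sites were defined by summits within 200 bp, 2 with q of at most 0.05 and 7 with equal list lengths. The 3 sites in all libraries became 1 with q of at most 0.05, the strong HEXIM1 site. The 1 site of both Dox libraries only became 0 with q of at most 0.05 and with equal list lengths. At equal list lengths its Dox 2 peak fell just outside the cut, at rank 11316 by p. Of the 5 Dox pairs, 2 were left at an IDR of at most 0.05. With 1 mismatch the 0 promoter decamers became 1.

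The percentile of the strong HEXIM1 peak by fold was 99.97 to 99.99 over the libraries. By p it was 99.99 in Dox replicate 1 and 99.96 in both PBS libraries. Among sites found in every library it was 99.88 and 99.96 in the Dox libraries and 99.91 and 99.80 in the PBS libraries. The RN7SK gene peak had percentiles of 93.8 and 81.1 in the Dox libraries and 89.4 and 89.6 in the PBS libraries. By p it was 90.3 in Dox replicate 2 and 93.0 and 94.4 in the PBS libraries. Among sites found in every library it was 56.8 and 56.4 in the Dox libraries and 75.1 and 62.8 in the PBS libraries. That choice leaves stronger sites to rank against. With passage as a replicate block, the mean of the differences within passages was 0.5 peaks in the HEXIM window and 1 in the RN7SK window, equal to the unpaired values by construction. No paired test was made. Depth is unknown, so a missing weak peak was not detected at these thresholds and is not shown to be absent.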
